A study of Homo sapiens with 16 samples.

Results

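The response to GDF11 was measured in 8 of the 16 libraries of the series, the 4 wells of the T288P line that received the ligand and the 4 wells of the same line that did not. The wells were chosen by their labels alone, and the response is described over all 16790 genes with enough counts to be tested. The cells were MCF10DCIS.com, a human breast line of the MCF10A series that forms lesions resembling ductal carcinoma in situ. A single clone without functional PCSK5 was transduced with a V5-tagged PCSK5 allele under tetracycline control and selected as a pool, so that 1 polyclonal line stands for each of the alleles wildtype, M452I and T288P. The clone had been recovered in 10 ng/ml GDF11 while it was isolated. All wells were seeded with 5000 cells on matrigel, in medium with 5 ng/ml EGF and 2% matrigel, received 1 µg/ml doxycycline from day 4 to switch on the allele, and were harvested on day 8. The treated wells (T288P+GDF11) also had 250 ng/ml recombinant mature GDF11 throughout, and the 12 untreated wells were 4 each of WT, M452I and T288P. GDF11 was given to T288P cells only, so that a response particular to that allele cannot be told apart from a response of the clone. The wells share a line and a culture, and nothing in the labels places them in separate experiments, so that p-values measure the spread between wells, which may be technical.

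GDF11 is a secreted protein of the TGF-beta family, closely related to myostatin. It is made as a precursor that convertases such as PCSK5 cut before the mature dimer can signal. The dimer binds an activin type II receptor, which recruits the type I receptors ALK4 or ALK5 (genes ACVR1B and TGFBR1), and these phosphorylate SMAD2 and SMAD3. With SMAD4 they enter the nucleus and act on genes for extracellular matrix, adhesion, proteolysis and feedback inhibitors, while other family members act through SMAD1 and SMAD5 on the ID genes. In epithelial cells such ligands are known to slow division and, in some settings, to weaken cell contacts.

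The 8 libraries held 28.5 to 44.8 M counts, with a mean of 34.7 M in both conditions. Neither the ribosomal protein share of counts (8.65% ± 0.529 and 8.78% ± 0.639; SD, n = 4 each) nor the mitochondrial share (3.43% ± 0.466 and 3.42% ± 0.233) separated the conditions (exact two-sided permutation test p = 0.714 and 1, where the smallest p that 4 against 4 wells can give is 0.0286). The TMM factors, by which edgeR scales the library totals, did separate them. They were 0.91, 1.03, 1.01 and 1.04 without GDF11 and 1.13, 1.08, 1.1 and 1.09 with it. Genes detected averaged 23600 without and 24500 with GDF11 (p = 0.114 by the same permutation test). T288P replicate 1 stood apart from the other untreated T288P wells, with the fewest genes detected (22658 against 23348 to 24644) and the highest ribosomal share (9.41% against 8.18% to 8.53%). It was the highest of the 4 untreated wells for 65.3% of the genes called lower with GDF11 and the lowest for 55.2% of those called higher, against 31.4% and 31.5% over all genes tested. Of the 13 mitochondrially encoded genes, a list kept as a sign of RNA quality, 4 fell (MT-ND1, MT-ND2, MT-ND4 and MT-ND4L), with 0 without T288P replicate 4, 1 without T288P replicate 1 or 2 or T288P+GDF11 replicate 2 or 3, and 2 without T288P+GDF11 replicate 4. Of 18 nuclear long RNAs and snoRNA hosts, a list of the same kind, 3 fell (NEAT1, SNHG12 and KCNQ1OT1) and 16 were negative, with 0 called without T288P+GDF11 replicate 3 and 1 without T288P replicate 1. The part of RNA quality in the results was not tested. M452I replicate 4, which enters the estimate of spread and is 1 of the 12 untreated wells, also stood apart from its group. Levels are given as CPM (counts scaled to the TMM-adjusted library total). A gene is called higher or lower where the Benjamini-Hochberg adjusted p of edgeR's quasi-likelihood test is under 0.05.

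GDF11 changed the level of 2174 of 16790 genes (12.9%), of which 851 rose (5.07%) and 1323 fell (7.88%). At least 2-fold changes were more often rises, with 259 genes higher (1.54%) and 151 lower (0.899%). The genes that rose had a median absolute log2 fold change of 0.738 and a median level of 14.1 CPM in the higher group, while those that fell had 0.5 and 54.6 CPM. A fit of only the 8 T288P wells called 1324 higher and 1245 lower, so that 51.5% of calls were higher, against 39.1% in the model of all 16 libraries. The count was 1028 (395 higher and 633 lower) without T288P replicate 1, 1195 without T288P+GDF11 replicate 1 and 1195 without T288P+GDF11 replicate 3. Of 129 called genes described here and refitted under each alternative, 102 stayed called whichever of the 8 wells was left out. The median log2 fold change over all genes was -0.01, the value beside which each list median below is to be read. Likewise each list count is to be read beside the 5.07% that rose and 7.88% that fell over all genes. Of the protein-coding genes, which make up most lists, 15.7% were called (784 higher and 1216 lower of 12773), a higher background than the 12.9% of all genes.

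PCSK5 (ENSG00000099139; chromosome 9, 75890644 to 76362339, GRCh38), the introduced convertase, was transcribed at 26.4, 29.4, 56.5 and 38.7 CPM in the untreated T288P wells, in replicate order, and at 49.3, 25.3, 42.2 and 46.3 CPM with GDF11. The ranges overlapped (log2 change 0.11 with SE 0.34, adjusted p = 0.862 by edgeR). Endogenous GDF11 (ENSG00000135414; chromosome 12, 55743280 to 55757278) was read at 4.6, 5.26, 7.1 and 6.02 CPM without the ligand and 7.33, 7.55, 5.95 and 7.38 CPM with it, and was not called (edgeR adjusted p = 0.347).

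The type I receptors ALK4 and ALK5 and 2 activin type II receptors were present and did not pass the test. ACVR1B was at 17.5 ± 0.982 CPM without and 14 ± 1.71 CPM with GDF11, TGFBR1 at 39.6 ± 0.944 and 39.6 ± 4.22, ACVR2A at 5.6 ± 1.31 and 6.49 ± 0.846, and ACVR2B at 12.5 ± 1.5 and 9.75 ± 0.689 (SD, n = 4 each; edgeR adjusted p = 0.0861, 0.991, 0.529 and 0.608). These 4 genes are named for their role, outside the rule for named genes. Of the 13 receptors and co-receptors tested, out of 17 in the table, 1 rose and 1 fell, shares near the 5.07% and 7.88% of all genes. ACVR1C, which encodes the type I receptor ALK7, fell from 5.29, 2.79, 3.27 and 2.85 CPM to 1.41, 1.29, 1.44 and 1.64 CPM (log2 change -1.29 with SE 0.24, adjusted p = 0.00229 by edgeR). Every treated well lay below all 12 untreated wells of the series. TGFBR2, the type II receptor of TGF-beta itself, rose from 26.7, 34.6, 39.5 and 40.9 CPM to 66.1, 53, 59 and 58.2 CPM (log2 change 0.74 with SE 0.21, adjusted p = 0.0313 by edgeR), again with no overlap. The TGFBR2 call was lost without T288P replicate 1 or 2 or T288P+GDF11 replicate 1, 3 or 4, with edgeR adjusted p up to 0.111.

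Among 18 parts of the SMAD2/3 pathway, feedback genes and latent TGF-beta binding proteins included, 2 rose and 2 fell. The median log2 fold change was 0.00. PMEPA1 (ENSG00000124225; chromosome 20, 57648392 to 57711536), a membrane protein that binds receptor SMADs away from the receptor, rose from 63.9, 77.9, 92.2 and 82.7 CPM to 204, 199, 202 and 189 CPM. LTBP2, a matrix protein of the latent TGF-beta binding family, rose from 5.35, 6.98, 11.4 and 10.5 CPM to 27, 20.5, 27.5 and 21.6 CPM (log2 change 1.50 with SE 0.32, adjusted p = 0.0064 by edgeR). SMAD3 (ENSG00000166949; chromosome 15, 67063763 to 67195195) fell from 134, 116, 126 and 121 CPM to 91.1, 83, 90 and 97.1 CPM (log2 change -0.46 with SE 0.08, adjusted p = 0.000975 by edgeR). The treated wells lay beyond all 12 untreated wells for each of these 3 genes. SMURF1, a ubiquitin ligase that targets SMADs and receptors, fell from 137 ± 26.2 to 92.7 ± 10.2 CPM (log2 change -0.56 with SE 0.16, adjusted p = 0.0252 by edgeR), a call that was lost without T288P replicate 1 or T288P+GDF11 replicate 1, 2 or 3 (edgeR adjusted p up to 0.121). SMAD2 (127 to 107 CPM), SMAD4 (77.7 to 68.3 CPM) and the feedback inhibitors SMAD7 (3.53 to 4.87 CPM) and SKIL (93.9 to 125 CPM) gave adjusted p-values of 0.179, 0.135, 0.138 and 0.0752. The other 10 parts, SKI, SMURF2, TGIF1, TGIF2, BAMBI, LDLRAD4, ZFYVE9, LTBP1, LTBP3 and LTBP4, were also not called.

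Few ligand genes of the family were called, although their median log2 fold change was 0.28, with 10 members positive and 4 negative. Of 14 tested out of 30 in the table, MSTN (myostatin) rose and TGFB1 fell, against 5.07% and 7.88% of all genes. MSTN was at 0.0657, 0.412, 0.139 and 0.329 CPM without GDF11 and at 1.38, 0.853, 1.09 and 0.496 CPM with it, a low level throughout. TGFB1 fell from 76.6, 44.8, 73.6 and 48.5 CPM to 29.2, 42.6, 41.3 and 40.1 CPM (log2 change -0.67 with SE 0.18, adjusted p = 0.0248 by edgeR), below all 12 untreated wells. NOG, a secreted antagonist of bone morphogenetic proteins and the 1 called gene of 8 antagonists tested, rose from 1.33 to 2.51 CPM. These 3 calls depended on single wells. That of MSTN was lost without T288P replicate 1, 3 or 4 or T288P+GDF11 replicate 1, 2 or 3 (edgeR adjusted p up to 0.126). That of TGFB1 was lost without T288P replicate 1 or 3 or T288P+GDF11 replicate 1 (up to 0.11). NOG lost its call without T288P replicate 1 or 2 or T288P+GDF11 replicate 1, 2 or 4 (up to 0.0806).

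Of the genes known as SMAD2/3 or TGF-beta targets in epithelial cells, 13 of 38 tested (42 in the table) rose, against 5.07% of all genes, and 3 fell, with a median log2 fold change of 0.27. The list was drawn up with results of these data known. Those that rose include FN1 (fibronectin; 66.3, 47.7, 93.3 and 70.3 CPM to 283, 257, 298 and 334 CPM), the matrix protein SPARC (13, 13.6, 11.3 and 17.8 CPM to 41.9, 30.8, 37.1 and 27.9 CPM) and VIM (vimentin; 870, 829, 783 and 799 CPM to 1510, 1810, 1700 and 1620 CPM). In all 3 the treated wells were above all 12 untreated wells. An antisense gene overlaps 12.4% of the exon bases of VIM. TGFBI, a classical TGF-beta target, did not change beyond the spread (99.6 to 118 CPM without and 107 to 119 CPM with GDF11; log2 change 0.06 with SE 0.09, adjusted p = 0.723 by edgeR). The fallers were SNAI1, TGFB1 and BHLHE40, and the list had 0 fallers without T288P replicate 1 and 1 without T288P+GDF11 replicate 1.

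The ID genes, targets of SMAD1 and SMAD5 that encode inhibitors of basic helix-loop-helix factors, did not move together. ID3 (ENSG00000117318; chromosome 1, 23557918 to 23559794) rose from 8.08, 11.7, 6.58 and 11.2 CPM to 23.4, 23.5, 23.6 and 16.5 CPM (log2 change 1.21 with SE 0.18, adjusted p = 0.000493 by edgeR). ID2 rose from 7.75, 5.91, 8.49 and 7.73 CPM to 12.4, 10.3, 14.8 and 11.2 CPM (log2 change 0.71 with SE 0.14, adjusted p = 0.00402 by edgeR). ID1 fell from 321, 259, 289 and 256 CPM to 191, 245, 218 and 215 CPM (log2 change -0.37 with SE 0.11, adjusted p = 0.0396 by edgeR). The ID2 and ID3 calls held whichever well was left out, whereas that of ID1 was lost without T288P replicate 1, 2 or 3 or T288P+GDF11 replicate 1, 3 or 4 (edgeR adjusted p up to 0.164). Of 9 BMP SMAD1/5 targets tested, 3 rose and 1 fell. The third riser was SMOC1, a matrix protein, at 76.7 to 147 CPM without and 176 to 231 CPM with GDF11, whose call was lost without T288P replicate 1 or 2 or T288P+GDF11 replicate 1, 2 or 3 (up to 0.085).

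**Figure D1:**
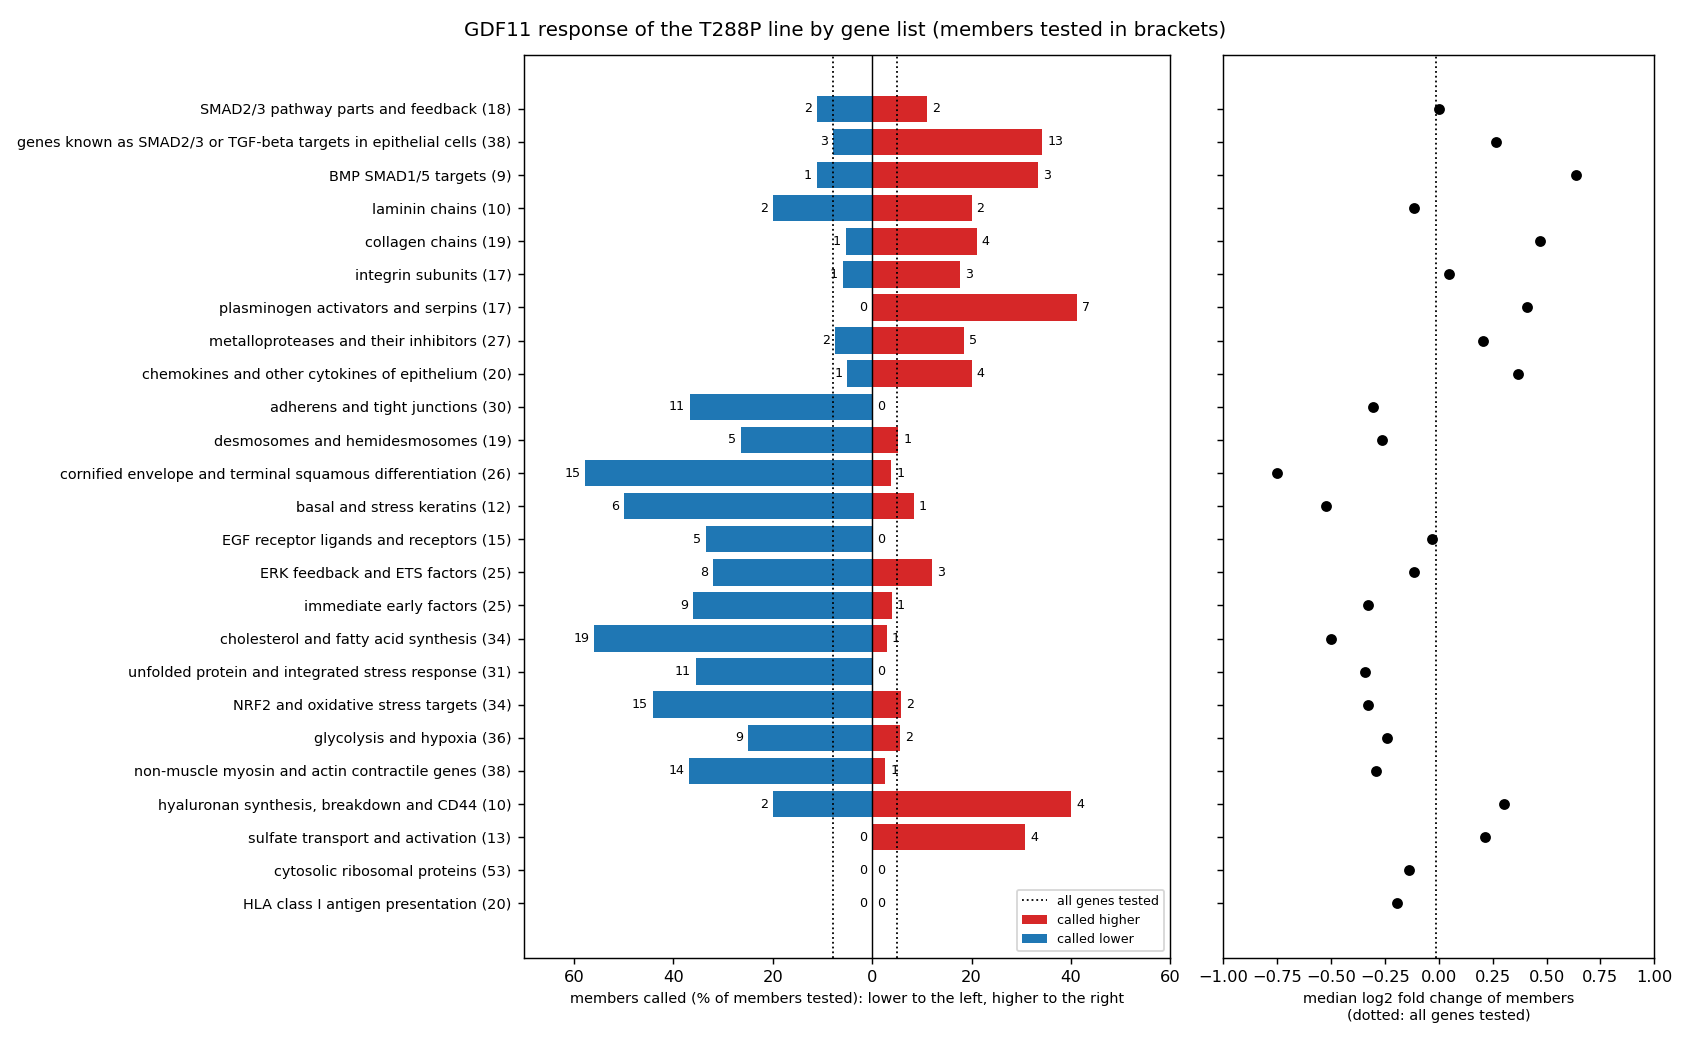
Members of 25 gene lists called higher (red, to the right) or lower (blue, to the left) with GDF11, as a percentage of members tested, with the counts at the bar ends, and the median log2 fold change of each list. Dotted lines give the same over all 16790 genes (5.07% higher, 7.88% lower, median -0.01), and the bars of the cornified envelope and cholesterol lists reach furthest to the left.

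Chains of laminin, the basement membrane protein that anchors epithelial cells, changed in both directions with GDF11. LAMA3 (ENSG00000053747; chromosome 18, 23689443 to 23956222) rose from 1030, 1150, 1640 and 1410 CPM to 2920, 2480, 3150 and 3280 CPM (log2 change 1.18 with SE 0.17, adjusted p = 0.000333 by edgeR). LAMB3, singled out after its values were seen, was at 4301 ± 290.1 CPM without and 4330 ± 201.9 CPM with GDF11 (SD, n = 4 each; log2 change 0.01 with SE 0.09, adjusted p = 0.959 by edgeR). For LAMA3 all 4 treated wells exceeded all 12 untreated wells, and the LAMB3 ranges overlapped. The difference in response between these chains was not itself tested. Of the other laminin chains, LAMA4 fell from 18.3, 16.7, 24.2 and 18.1 CPM to 12.3, 11.6, 12.9 and 14 CPM (log2 change -0.60 with SE 0.11, adjusted p = 0.00278 by edgeR). LAMB1 fell from 335 to 281 CPM, a call that was lost on leaving out any 1 of the 8 wells (edgeR adjusted p up to 0.103).

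Among the integrins, which bind such matrix, ITGB6, ITGAV and ITGA6 rose and ITGA1 fell, out of 17 subunits tested, against 5.07% and 7.88% of all genes. The other 13 were not called, and the median log2 fold change was 0.05. ITGB6 (ENSG00000115221; chromosome 2, 160099666 to 160200313) and ITGAV encode both subunits of an integrin that binds fibronectin and latent TGF-beta. ITGB6 was at 38.7, 56.8, 50 and 51.8 CPM without GDF11 and at 175, 122, 161 and 140 CPM with it. ITGAV rose from 89.5, 109, 97.1 and 95.8 CPM to 165, 113, 151 and 151 CPM (log2 change 0.57 with SE 0.14, adjusted p = 0.0126 by edgeR), with 1 treated well inside the range of all untreated wells. ITGA6, a subunit of the hemidesmosome's laminin receptor, rose from 690, 916, 963 and 954 CPM to 1500, 1160, 1380 and 1310 CPM (log2 change 0.61 with SE 0.17, adjusted p = 0.0262 by edgeR). Its call was lost without T288P replicate 1 or T288P+GDF11 replicate 1 or 3 (edgeR adjusted p up to 0.0916). ITGA1, a collagen receptor subunit, fell from 21.4 to 14.6 CPM (log2 change -0.55 with SE 0.11, adjusted p = 0.00301 by edgeR), below all 12 untreated wells. FERMT1 (kindlin-1), which activates integrins from inside the cell, rose from 33.1, 49.5, 54 and 55.2 CPM to 212, 154, 225 and 215 CPM (log2 change 2.07 with SE 0.28, adjusted p = 0.000506 by edgeR).

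Of 19 collagen chains tested (27 in the table), 4 rose and 1 fell, and 17 had a positive log2 fold change, with a median of 0.47. COL8A1 rose from 4.93, 7.21, 8.87 and 9.97 CPM to 29.8, 21.1, 24.6 and 20.5 CPM (log2 change 1.63 with SE 0.36, adjusted p = 0.00787 by edgeR), and COL4A2, a chain of basement membrane collagen, from 58.6, 55.3, 58.2 and 62.5 CPM to 93.4, 78.4, 83.5 and 90.5 CPM (log2 change 0.56 with SE 0.08, adjusted p = 0.00038 by edgeR). COL6A1 was the exception, falling from 6.54, 2.99, 7.59 and 3.62 CPM to 0.912, 1.2, 0.769 and 1.36 CPM. The rises of COL4A1 (28.5 to 39.6 CPM) and COL9A3 (0.425 to 1.16 CPM) were lost on leaving out any of 7 and 5 of the 8 wells, so that the count of risers was 2 without T288P replicate 2 or 3 or T288P+GDF11 replicate 1 or 3.

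**Figure D2:**
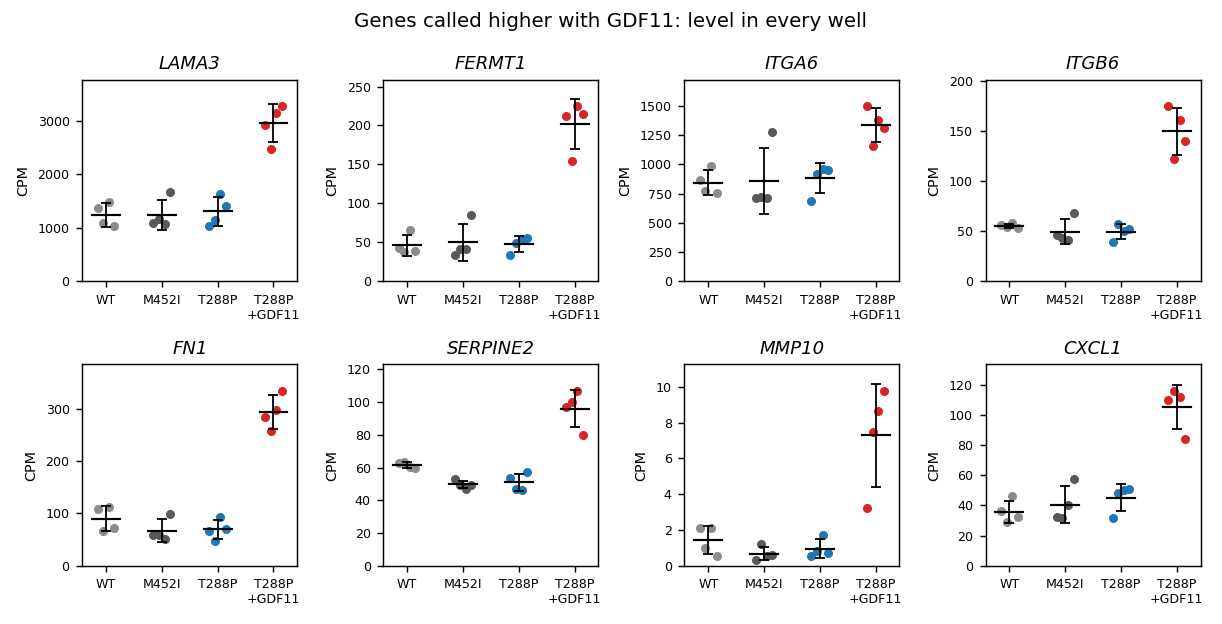
CPM of 8 genes called higher with GDF11 in each of the 16 wells (points), by condition, with the mean (line) and SD (bars) of 4 wells on a linear axis from 0. For every gene shown except ITGA6 the 4 treated wells lie above all 12 untreated wells; for ITGA6, 1160 CPM in a treated well falls below the 1280 CPM of the highest untreated well.

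Of the plasminogen activators and serpins, 7 of 17 tested (20 in the table) rose, against 5.07% of all genes, with 0 lower and a median log2 fold change of 0.41. SERPINE2, an inhibitor of thrombin and urokinase, rose from 53.6, 47.2, 46.1 and 57.2 CPM to 97.3, 99.9, 107 and 80.2 CPM (log2 change 0.91 with SE 0.09, adjusted p = 1.18e-05 by edgeR). PLAU, urokinase itself, rose from 26.4, 25.5, 37.3 and 32.5 CPM to 44.9, 48.1, 53.2 and 48.3 CPM (log2 change 0.68 with SE 0.12, adjusted p = 0.00185 by edgeR). The enzyme and this inhibitor thus rose in the same wells. SERPINA1 and SERPINA3, inhibitors of neutrophil proteases, rose from 24.7 to 42.6 CPM and from 733 to 1570 CPM. For these 4 genes each treated well exceeded all 12 untreated wells. Another gene overlaps 31.1% of the exon bases of PLAU on the opposite strand and 31.8% of those of SERPINA3 on the same strand, so that some of their reads may belong to the neighbour.

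Metalloproteases and their inhibitors gave 5 rises and 2 falls among 27 tested, against 5.07% and 7.88% of all genes, so that the share of falls was near the background. MMP10 (stromelysin-2), a broad matrix protease, was at 0.526, 0.823, 1.74 and 0.719 CPM without GDF11 and at 3.24, 7.46, 8.66 and 9.79 CPM with it. TIMP2, an inhibitor of matrix metalloproteases, fell from 86.6, 70.4, 73.2 and 75.6 CPM to 45.5, 46.8, 49.3 and 53.4 CPM (log2 change -0.65 with SE 0.10, adjusted p = 0.000393 by edgeR). The treated wells lay beyond all 12 untreated wells for both. The rises of MMP7 (1.53 to 3.27 CPM), ADAMTS6 (1.93 to 7.73 CPM) and ADAMTS15 (0.324 to 1.28 CPM) depended on single wells, and the number of risers was 1 without T288P replicate 1 or T288P+GDF11 replicate 1 and 3 without T288P replicate 2 or T288P+GDF11 replicate 3.

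The chemokines that attract neutrophils through the receptor CXCR2 rose together. CXCL1 (ENSG00000163739; chromosome 4, 73869393 to 73871242) went from 31.5, 48, 50.3 and 51 CPM to 110, 116, 112 and 83.9 CPM (log2 change 1.22 with SE 0.20, adjusted p = 0.000981 by edgeR). CXCL3 rose from 9.3, 16.4, 13.5 and 13.2 CPM to 31.1, 32.8, 31.2 and 24.6 CPM, CXCL2 from 4.45 to 9.22 CPM, and CXCL8 (interleukin-8) from 127, 105, 124 and 102 CPM to 184, 215, 191 and 176 CPM (edgeR adjusted p = 0.000269, 0.00601 and 0.00169). These were the 4 risers among 20 chemokine and cytokine genes tested (33 in the table), against 5.07% of all genes. The count of risers was 4 or more in every alternative. The list also had 1 faller, CXCL17 (log2 change -2.34, adjusted p = 0.0078 by edgeR), against 7.88% of all genes. Its median log2 fold change was 0.37. CXCL1, CXCL2 and CXCL3 are closely similar genes of 1 cluster, and reads may be shared between them. SOD2, the mitochondrial superoxide dismutase and an NF-kB target, rose from 200, 262, 174 and 221 CPM to 422, 313, 401 and 292 CPM. It was 1 of 4 risers, with 0 fallers, among 26 NF-kB feedback and inflammatory targets, a list whose median log2 fold change was 0.10. In the opposite direction, the alarmin IL33 fell from 30.6, 51.2, 43.3 and 45.2 CPM to 11.7, 13.8, 12.5 and 12.7 CPM (log2 change -1.75 with SE 0.16, adjusted p = 5.19e-06 by edgeR).

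Of 30 genes of adherens and tight junctions tested, 11 fell, against 7.88% of all genes, 0 were higher, 27 had a negative log2 fold change, and the median was -0.30. OCLN (occludin; ENSG00000197822; chromosome 5, 69492292 to 69558104) fell from 37.2, 28.9, 29.6 and 26.4 CPM to 13.2, 11.5, 12.4 and 15.9 CPM (log2 change -1.21 with SE 0.16, adjusted p = 0.000128 by edgeR). The claudin CLDN4 fell from 236, 144, 177 and 146 CPM to 71.1, 91.6, 73.4 and 84.5 CPM (log2 change -1.13 with SE 0.21, adjusted p = 0.00242 by edgeR), and TJP3, a scaffold of tight junctions, from 3.35 to 1.53 CPM. CDH1 (E-cadherin) was at 353, 325, 349 and 336 CPM without and 229, 218, 230 and 253 CPM with GDF11. For each of these 4 genes the treated wells were below all 12 untreated wells. The number of fallers was 7 without T288P replicate 1 or 3 or T288P+GDF11 replicate 1 or 3.

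Desmosome and hemidesmosome genes gave 5 fallers and 1 riser (ITGA6) among 19 tested, against 7.88% and 5.07% of all genes. Their median log2 fold change was -0.27. DSG3, a desmosomal cadherin, fell from 780, 728, 695 and 687 CPM to 529, 393, 497 and 564 CPM, and DSP (desmoplakin) from 821, 776, 922 and 851 CPM to 661, 488, 654 and 705 CPM (edgeR adjusted p = 0.00601 and 0.0134), both below all 12 untreated wells. The number of fallers was 3 without T288P replicate 1 or 3 or T288P+GDF11 replicate 1, 2 or 3.

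Of 20 transcription and splicing factors that promote or repress the epithelial state, 1 rose, 5 fell and 14 were not called, with a median log2 fold change of 0.06. ELF3, an epithelial ETS factor, fell from 67.7, 38.5, 49.8 and 43.3 CPM to 14.2, 18.7, 15.8 and 19.2 CPM (log2 change -1.55 with SE 0.20, adjusted p = 0.000163 by edgeR). OVOL1, a repressor of mesenchymal genes, fell from 18, 10.4, 19.9 and 13.4 CPM to 5.18, 7.11, 4.99 and 8.61 CPM (log2 change -1.25 with SE 0.21, adjusted p = 0.00123 by edgeR), and GRHL1, an activator of desmosomal genes, from 31.4 to 21 CPM (edgeR adjusted p = 0.00217). All treated wells were below all 12 untreated wells for these 3 genes. ZEB1, a repressor of CDH1, rose from 2.66, 2.62, 2.78 and 2.46 CPM to 3.65, 4.05, 3.7 and 5.17 CPM (log2 change 0.65 with SE 0.18, adjusted p = 0.0266 by edgeR), while SNAI1 (Snail), another such repressor, fell from 6.57, 4.22, 4 and 3.32 CPM to 2.41, 1.99, 2.18 and 2.82 CPM (log2 change -0.95 with SE 0.27, adjusted p = 0.0298 by edgeR). The ZEB1 call was lost without T288P replicate 1 or 4 or T288P+GDF11 replicate 4 (edgeR adjusted p up to 0.0854), and that of SNAI1 without T288P replicate 1 or T288P+GDF11 replicate 1, 2 or 3 (up to 0.139). The fallers were 3 without T288P replicate 1 or T288P+GDF11 replicate 2 or 3.

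The cornified envelope is the cross-linked protein shell that squamous cells build as they differentiate. Of its 26 genes tested (45 in the table), 15 fell against 7.88% of all genes, 1 rose (ALOXE3), and the median log2 fold change was -0.75. Small proline-rich proteins, the bricks of that shell, lie side by side on chromosome 1. SPRR2A (ENSG00000241794; chromosome 1, 153056113 to 153057537) fell from 56.8, 36.7, 33.2 and 36.4 CPM to 8.44, 9.02, 7.81 and 6.54 CPM. SPRR1A (ENSG00000169474; chromosome 1, 152985231 to 152985500) fell from 17.5, 10.1, 15.2 and 12.2 CPM to 4.09, 4.35, 4.04 and 4.68 CPM (log2 change -1.68 with SE 0.16, adjusted p = 5.19e-06 by edgeR). SPRR1B (ENSG00000169469; chromosome 1, 153031202 to 153032900) fell from 53.1, 36.1, 39 and 35.8 CPM to 19.8, 16.5, 18.9 and 16 CPM (log2 change -1.21 with SE 0.14, adjusted p = 3.84e-05 by edgeR). No treated well reached the lowest of the 12 untreated wells for any of the 3. SPRR2D and SPRR2E fell likewise, from 23.5 to 7.31 CPM and from 8.2 to 1.51 CPM. Members of this family are near-identical in part and may share reads.

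The promoters of the 3 genes are shown because each carries the motif of AP-1, the FOS and JUN dimer. Each line is the 250 bases before the start site on the gene's strand, from RefSeq (GRCh38.p14), in lower case with matches to TGANTCA in capitals. The intervals are chr1:153057513-153057762 (minus strand) for SPRR2A, chr1:152983831-152984080 (plus) for SPRR1A and chr1:153030953-153031202 (plus) for SPRR1B.
SPRR2A: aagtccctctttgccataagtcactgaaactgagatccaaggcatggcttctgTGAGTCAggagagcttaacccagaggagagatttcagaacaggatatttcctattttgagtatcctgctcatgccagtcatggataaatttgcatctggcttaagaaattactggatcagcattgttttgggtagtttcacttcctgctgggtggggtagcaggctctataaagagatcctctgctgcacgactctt
SPRR1A: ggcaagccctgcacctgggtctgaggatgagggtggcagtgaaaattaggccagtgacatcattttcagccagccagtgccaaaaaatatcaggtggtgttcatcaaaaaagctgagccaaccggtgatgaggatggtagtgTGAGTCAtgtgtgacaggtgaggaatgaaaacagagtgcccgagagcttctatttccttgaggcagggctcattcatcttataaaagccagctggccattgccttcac
SPRR1B: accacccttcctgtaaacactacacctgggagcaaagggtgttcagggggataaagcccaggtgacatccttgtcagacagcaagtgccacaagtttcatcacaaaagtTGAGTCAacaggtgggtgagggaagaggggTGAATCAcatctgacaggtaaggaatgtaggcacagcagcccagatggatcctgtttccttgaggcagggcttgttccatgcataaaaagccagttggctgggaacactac

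The match in SPRR2A starts 197 bases before the start site, that in SPRR1A 108 bases, and the 2 in SPRR1B 141 and 111 bases. Of the 16 cornified envelope genes with a promoter in the RefSeq table, 6 held TGANTCA on either strand, as did 5 of the 7 that fell, against 6.6% of all 27305 promoters and 4.23% of those of the genes tested. The 5 were SBSN, SPRR1A, SPRR1B, SPRR2A and SPRR3, most of them from a single gene family. Over all called genes the motif did not set fallers apart, at 5.15% of promoters of genes called lower and 5.6% of those called higher. In the plasminogen list, where 0 genes fell, 5 of 14 promoters held it. The motif reads the same on both strands in its fixed letters and was not counted with another motif. A match describes the letters of the window and is no evidence of binding. Whether AP-1 acts on these genes was not tested. Other motifs were also searched. Every promoter shown in this report holds a match, and promoters searched without a match are not shown. The motif TCACNCCAC was in 1 of 27 promoters of the cholesterol list below, against 0.832% of those of the genes tested. The motif TGACNNNGC was in 6 of 24 promoters of the NRF2 list below, against 11.9%. The SMAD motif CAGACA was in 9.87% of promoters of genes called higher, against 9.96% of those of the genes tested. The promoters of PMEPA1, FN1 and ITGB6 did not hold it.

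Kallikreins and S100 proteins of squamous cells were also measured. KLK5, a protease of the cornified layer, fell from 7, 6.84, 13.8 and 9.46 CPM to 2.91, 3.48, 2.83 and 2.82 CPM, and KLK10 from 2.24 to 0.64 CPM, 2 of the 3 kallikreins tested. Of 16 S100 calcium-binding proteins 3 fell, 1 rose and 12 were not called, against 7.88% lower and 5.07% higher over all genes. Their median log2 fold change was -0.05. S100A9, a subunit of calprotectin, fell from 140, 78.7, 60.3 and 65.8 CPM to 18.5, 24.6, 21.3 and 20.1 CPM (log2 change -2.03 with SE 0.38, adjusted p = 0.00484 by edgeR), and S100P from 512, 239, 345 and 249 CPM to 109, 166, 133 and 142 CPM. In the epidermal differentiation interval of chromosome 1 (151982915 to 153632039), 28 genes were tested, 9 fell, and 1, S100A3, rose (2.81 to 5.07 CPM), with a median log2 fold change of -0.33.

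Keratins changed in both directions. KRT16, a keratin of stressed and proliferating epidermis (ENSG00000186832; chromosome 17, 41609778 to 41615899), fell from 584, 283, 495 and 331 CPM to 84, 140, 115 and 137 CPM (log2 change -1.83 with SE 0.27, adjusted p = 0.000598 by edgeR). KRT17 fell from 4160, 2380, 3810 and 2560 CPM to 1390, 2240, 1780 and 2030 CPM (log2 fold change -0.80, SE 0.19), a call lost without T288P replicate 1 or T288P+GDF11 replicate 1 (edgeR adjusted p up to 0.0583). KRT5, the main basal keratin, fell from 2210, 2250, 2610 and 2320 CPM to 1660, 1860, 1720 and 1690 CPM (log2 change -0.44 with SE 0.09, adjusted p = 0.00317 by edgeR), and its partner KRT14 was at 79.7 ± 18.3 and 69 ± 4.88 CPM (SD, n = 4 each; edgeR adjusted p = 0.355). KRT15, also a basal keratin, rose from 438, 387, 402 and 423 CPM to 738, 662, 678 and 629 CPM (log2 change 0.71 with SE 0.09, adjusted p = 0.000128 by edgeR), above all 12 untreated wells. Of the 12 basal and stress keratins tested, 6 fell and 1 rose. The luminal keratin KRT8 was at 708, 406, 405 and 389 CPM without and 262, 336, 308 and 302 CPM with GDF11 and was not called (edgeR adjusted p = 0.105). Its partner KRT18 fell from 419 ± 84.4 to 291 ± 35.2 CPM (SD, n = 4 each; log2 change -0.52 with SE 0.16, adjusted p = 0.0435 by edgeR), with 1 treated well inside the range of all untreated wells. That call was lost without T288P replicate 1, 2 or 3 or T288P+GDF11 replicate 1, 3 or 4 (edgeR adjusted p up to 0.196). Of 14 luminal keratins and factors, 4 fell (KRT18, FOXA1, ELF3 and CD24) and 0 rose, with a median log2 fold change of -0.41.

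**Figure D3:**
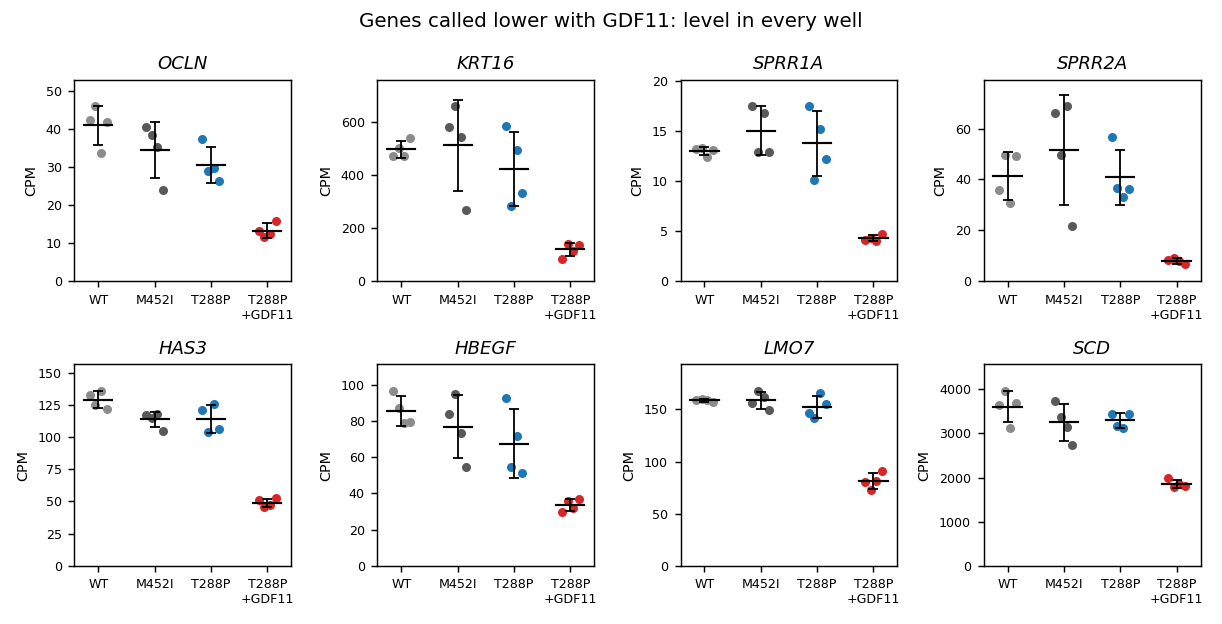
CPM of 8 genes called lower with GDF11 in each of the 16 wells (points), by condition, with the mean (line) and SD (bars) of 4 wells on a linear axis from 0. In all 8 panels the 4 treated wells lie below all 12 untreated wells, with SPRR2A at 6.54 to 9.02 CPM against 21.7 to 68.9 CPM.

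Ligands and receptors of the EGF family, which drive growth of these cells together with the added EGF, fell in part. Of 15 tested, 5 fell and 0 rose, against 7.88% and 5.07% of all genes. The list median was -0.03, with 7 members positive and 8 negative. HBEGF (ENSG00000113070; chromosome 5, 140332843 to 140346631) fell from 92.7, 54.3, 71.9 and 51.1 CPM to 29.7, 35.6, 32.1 and 37 CPM (a 2.01-fold lower mean, adjusted p = 0.00163 by edgeR). EREG (epiregulin) fell from 191, 146, 177 and 128 CPM to 96.7, 89.8, 98.9 and 105 CPM, and EPGN (epigen) from 127, 122, 112 and 117 CPM to 76.4, 75.6, 78.5 and 77.5 CPM, both with an edgeR adjusted p of 0.000857. The receptor ERBB3 fell from 54.6 to 33.6 CPM and the feedback inhibitor ERRFI1 from 370 to 229 CPM. The treated wells lay below all 12 untreated wells for all 5, and the count was 5 in every alternative.

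Genes downstream of ERK moved in both directions. Among 25 ERK feedback genes and ETS factors, 8 fell and 3 rose, against 7.88% and 5.07% of all genes. The risers were 1 without T288P replicate 1 or T288P+GDF11 replicate 1, 3 or 4. DUSP5, a phosphatase that inactivates ERK in the nucleus, fell from 652, 405, 407 and 391 CPM to 168, 226, 194 and 226 CPM (log2 change -1.19 with SE 0.21, adjusted p = 0.00184 by edgeR). EPHA2, an ephrin receptor, fell from 426, 295, 332 and 308 CPM to 156, 190, 176 and 188 CPM (log2 change -0.94 with SE 0.13, adjusted p = 0.000215 by edgeR). SPRY2, an inhibitor of receptor signalling, rose from 46.8, 49.9, 65.1 and 45.3 CPM to 76.2, 79.4, 76 and 82.5 CPM (log2 change 0.60 with SE 0.13, adjusted p = 0.0068 by edgeR). For these 3 the groups did not overlap, and the treated wells lay beyond all 12 untreated wells.

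Immediate early factors, the genes that cells switch on within minutes of a growth or stress signal, gave 9 fallers and 1 riser among 25. The shares over all genes were 7.88% and 5.07%, and the list median was -0.33. ATF3 fell from 148, 60.3, 98.1 and 61.4 CPM to 22.4, 33.2, 23.4 and 31.8 CPM (log2 change -1.73 with SE 0.38, adjusted p = 0.0101 by edgeR). NR4A1 fell from 22.7, 11.2, 19.9 and 11.8 CPM to 6.36, 7.44, 6.18 and 7.07 CPM (log2 change -1.27 with SE 0.23, adjusted p = 0.00221 by edgeR). The AP-1 subunits FOSB and FOSL1 fell from 14.5 to 8.35 CPM and from 40.4 to 26.7 CPM, and EGR1 from 86.6 to 54 CPM. KLF10, known as an early TGF-beta response gene, was the riser, from 22.5, 35.2, 34.1 and 28.6 CPM to 53.5, 49.8, 60.6 and 55.3 CPM (log2 change 0.86 with SE 0.16, adjusted p = 0.00214 by edgeR).

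Of 34 genes of cholesterol and fatty acid synthesis tested, 19 fell against 7.88% of all genes, 1 rose (PMVK), 14 were not called, 31 had a negative log2 fold change, and the median was -0.50. SCD (stearoyl-CoA desaturase; ENSG00000099194; chromosome 10, 100347124 to 100364834) fell from 3440, 3160, 3130 and 3450 CPM to 1990, 1780, 1860 and 1810 CPM (log2 change -0.82 with SE 0.11, adjusted p = 0.000115 by edgeR). The enzyme ACSS2, which makes acetyl-CoA from acetate, fell from 319, 273, 265 and 263 CPM to 134, 161, 143 and 153 CPM (log2 change -0.92 with SE 0.12, adjusted p = 0.000175 by edgeR). The transcription factor genes SREBF1 and SREBF2, master regulators of the pathway, fell from 113 to 66.3 CPM and from 191.5 to 135.1 CPM. T288P replicate 1 was the highest untreated T288P well for the list as a whole (mean log2(CPM + 1) 0.21 above the T288P mean, against -0.10 to -0.03 for the other 3 and -0.44 to -0.39 for the treated wells). The number of fallers was 10 without T288P replicate 1, 11 without T288P+GDF11 replicate 1 or 3 and 12 without T288P+GDF11 replicate 4, and the list median was -0.36 without T288P replicate 1.

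NRF2 and oxidative stress targets gave 15 fallers and 2 risers (SOD2 and AKR1C3) among 34 tested, against 7.88% and 5.07% of all genes. The list median was -0.33. TXNRD1 (thioredoxin reductase) fell from 286, 200, 267 and 209 CPM to 131, 127, 131 and 131 CPM (log2 change -0.88 with SE 0.13, adjusted p = 0.000311 by edgeR), and GPX2, a glutathione peroxidase, from 16.9, 12.6, 15.8 and 17 CPM to 7.03, 5.65, 7.66 and 8.34 CPM (log2 change -1.12 with SE 0.14, adjusted p = 0.000112 by edgeR), both below all 12 untreated wells. FTH1, the ferritin heavy chain, fell from 6750, 3680, 5280 and 4070 CPM to 2010, 2740, 2410 and 2740 CPM, although 62.4% of its exon bases overlap a gene on the other strand. HMOX1 (heme oxygenase) was at 67.6 CPM in T288P replicate 1, 21.6 to 23.1 CPM in the other 3 untreated wells and 5.47 to 9.5 CPM with GDF11, and its call was lost without T288P replicate 1 or T288P+GDF11 replicate 1 or 3 (edgeR adjusted p up to 0.0805). Without T288P replicate 1 the number of NRF2 fallers was 7.

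The unfolded protein response, the program that expands the endoplasmic reticulum's folding capacity, gave 11 fallers and 0 risers among 31 tested. The shares over all genes were 7.88% and 5.07%, and the list median was -0.34. HSPA5 (BiP, the main chaperone of the endoplasmic reticulum; ENSG00000044574; chromosome 9, 125234853 to 125241330) fell from 3070, 1920, 1640 and 1730 CPM to 884, 1130, 901 and 971 CPM (log2 change -1.10 with SE 0.25, adjusted p = 0.00925 by edgeR), with 1 treated well at the level of the lowest untreated well of the series. PPP1R15A, which reverses the translation block of the response, fell from 197, 108, 120 and 111 CPM to 49.7, 64, 56.5 and 70 CPM (log2 change -1.16 with SE 0.24, adjusted p = 0.00691 by edgeR). SYVN1, a ubiquitin ligase that clears misfolded proteins, fell from 23.7, 24, 26.9 and 24.3 CPM to 16.8, 18.5, 18.3 and 17.5 CPM (log2 change -0.48 with SE 0.10, adjusted p = 0.00601 by edgeR). The list as a whole was not below all untreated wells. The UPR list stood at -0.39 in M452I replicate 4, inside the range of -0.50 to -0.33 of the treated wells, and at 0.32 in T288P replicate 1 against -0.15 to -0.03 in the other untreated T288P wells. The number of fallers was 5 without T288P replicate 1, 7 without T288P+GDF11 replicate 1 and 6 without T288P+GDF11 replicate 3.

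The promoter of HSPA5 is shown because it holds the endoplasmic reticulum stress element, CCAAT and CCACG at a fixed distance, through which factors of this response are known to act. It gives the 250 bases before the start site on the minus strand (chr9:125241344-125241593, RefSeq, GRCh38.p14), with the match to the element in capitals, 66 bases before the start site.
HSPA5: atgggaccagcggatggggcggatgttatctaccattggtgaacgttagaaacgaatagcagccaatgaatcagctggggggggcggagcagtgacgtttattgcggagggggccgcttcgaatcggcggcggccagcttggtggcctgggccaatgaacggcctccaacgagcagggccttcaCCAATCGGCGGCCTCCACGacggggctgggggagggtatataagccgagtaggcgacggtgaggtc

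Of the 30 genes of the list with a promoter in the table, 4 (CRELD2, HSP90B1, HSPA5 and XBP1) held this element on either strand, against 0.0806% of all promoters. HSPA5 and HSP90B1 (2340 ± 334.7 to 1542 ± 106.6 CPM; edgeR adjusted p = 0.0139) fell, and CRELD2 and XBP1 were not called. Genes of glycolysis and the hypoxia response gave 9 fallers and 2 risers among 36, against 7.88% and 5.07% of all genes, with a median of -0.24. Among the fallers were the glucose transporter SLC2A1 (194, 128, 196 and 142 CPM to 80.2, 96.6, 94.9 and 113 CPM) and the hexokinase HK2 (284, 175, 263 and 200 CPM to 129, 127, 130 and 157 CPM). The fallers numbered 5 without T288P replicate 1 or T288P+GDF11 replicate 1 or 3.

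**Figure D4:**
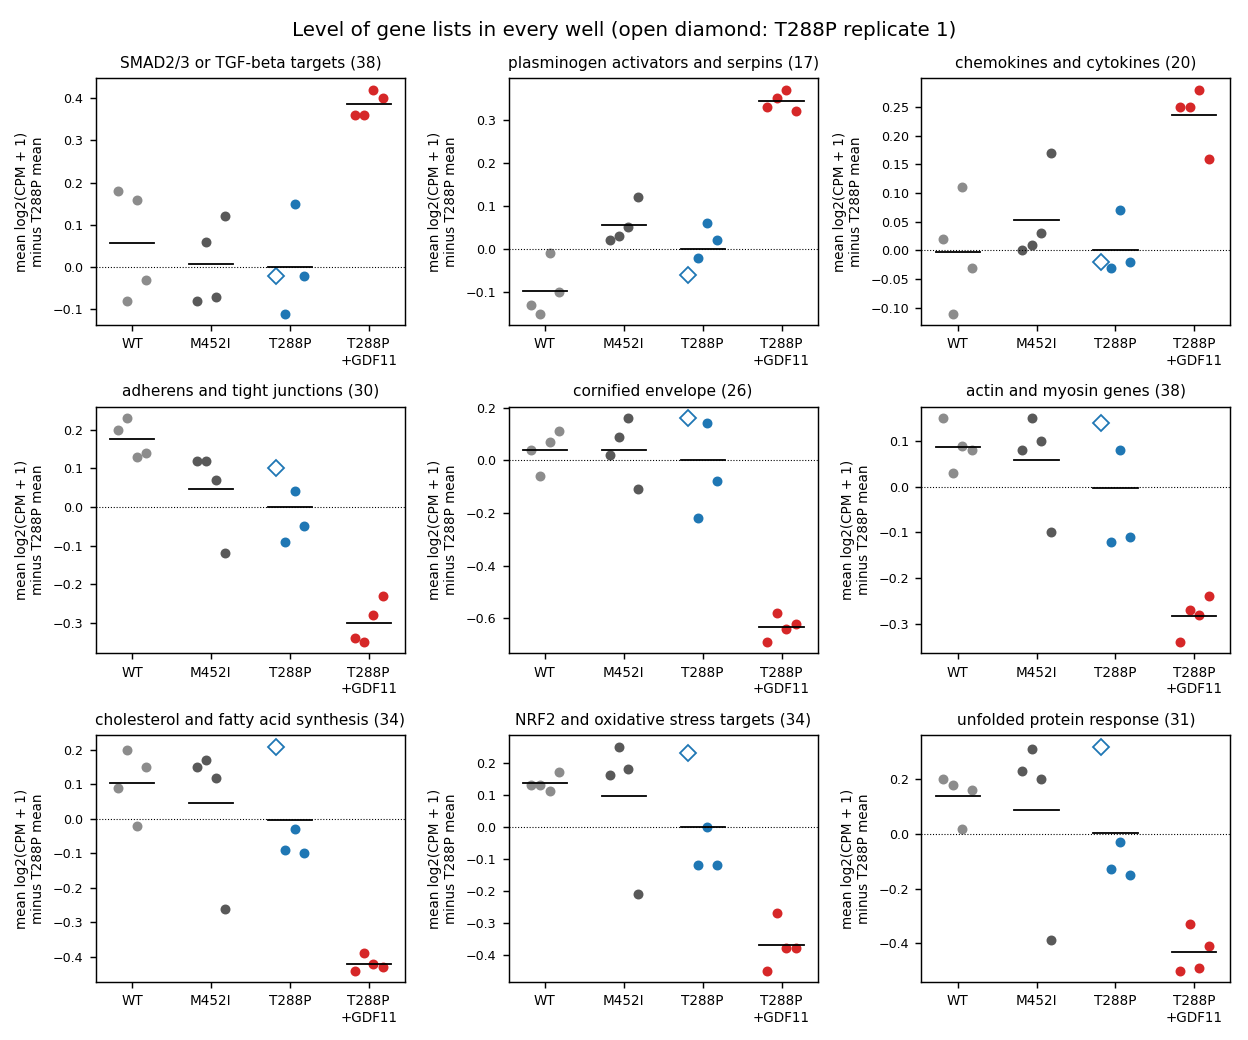
Mean log2(CPM + 1) over the tested members of 9 gene lists in each of the 16 wells, as the difference from the mean of the 4 untreated T288P wells, with group means as lines and T288P replicate 1 as an open diamond. The treated wells lie beyond all 12 untreated wells in 7 of the lists, with the exceptions of chemokines and cytokines, where 1 treated well at 0.16 is below M452I replicate 4 at 0.17, and the unfolded protein response.

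Of 38 actin and myosin genes of the contractile apparatus tested, 14 fell and 1 rose, against 7.88% and 5.07% of all genes, with a median of -0.29. LMO7 (ENSG00000136153; chromosome 13, 75620434 to 75859870), an actin-binding protein of cell junctions, fell from 147, 142, 166 and 155 CPM to 80, 72.8, 81.2 and 91.1 CPM (log2 change -0.91 with SE 0.08, adjusted p = 3.23e-06 by edgeR). ACTG1, cytoplasmic gamma-actin, fell from 12900, 7700, 9910 and 7400 CPM to 4570, 5900, 5250 and 5530 CPM (log2 change -0.84 with SE 0.19, adjusted p = 0.0089 by edgeR), and vinculin (VCL), which links actin to adhesions, from 278, 263, 279 and 262 CPM to 203, 155, 201 and 196 CPM (log2 change -0.52 with SE 0.09, adjusted p = 0.000995 by edgeR). For these 3 all treated wells were below all 12 untreated wells, and the count of fallers was 12 or more in every alternative. CALD1 (caldesmon), which restrains actin-myosin sliding, was the riser, from 133, 139, 156 and 132 CPM to 195, 184, 196 and 203 CPM (log2 change 0.47 with SE 0.09, adjusted p = 0.00253 by edgeR).

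Genes that make and clear hyaluronan, a matrix sugar, changed in both directions. HAS3 (ENSG00000103044; chromosome 16, 69105564 to 69118719), a hyaluronan synthase, fell from 121, 104, 126 and 106 CPM to 50.7, 45.8, 47.2 and 52.6 CPM (log2 change -1.22 with SE 0.08, adjusted p = 2.05e-07 by edgeR), and the hyaluronidase HYAL1 from 9.82 to 5.44 CPM. HMMR, a hyaluronan receptor that also acts in mitosis, rose from 5.29, 6.87, 5.11 and 6.65 CPM to 13.2, 11.6, 11.9 and 12.1 CPM (log2 change 1.03 with SE 0.20, adjusted p = 0.00329 by edgeR). Of 10 genes tested, 4 rose and 2 fell, with 2 risers left without T288P replicate 1 or 3 or T288P+GDF11 replicate 3. Sulfate transport and activation genes, which supply sulfate for proteoglycans, gave 4 risers and 0 fallers among 13. The plasma membrane transporter SLC26A2 (ENSG00000155850; chromosome 5, 149960737 to 149993455) rose from 3.55, 12.2, 10.3 and 13.8 CPM to 86, 39.8, 60.7 and 47.1 CPM, and the chondroitin sulfotransferase CHST3 from 22.6, 33.1, 38.5 and 37 CPM to 79.6, 50, 62.4 and 56.1 CPM (log2 change 0.92 with SE 0.22, adjusted p = 0.0127 by edgeR). Without T288P replicate 1 the sulfate risers were 2.

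Several programs gave counts near or under the background. Of the 53 cytosolic ribosomal protein genes, 0 were called by edgeR, DESeq2 or limma-voom and 0 had an unadjusted p under 0.05, with a median of -0.14. Of the 20 antigen presentation genes of HLA class I, 0 were called by the same tools and 4 had an unadjusted p under 0.05, with a median of -0.19. With the ribosomal share as a covariate, 47 and 9 of them were called lower. Of 51 genes of G2 and mitosis 1 rose and 3 fell, and of 44 DNA replication genes 3 rose and 1 fell. The DNA replication risers were 1 without T288P replicate 1 or 3 or T288P+GDF11 replicate 1 or 3, and the fallers were 0 without T288P replicate 1 and 2 without T288P replicate 2. The proliferation marker MKI67 was at 57.9, 52.2, 63.3 and 62.3 CPM without and 50.8, 31.5, 48.7 and 46.7 CPM with GDF11 (log2 change -0.41 with SE 0.14, adjusted p = 0.056 by edgeR). In bulk RNA, fewer cells of a state and less RNA per cell cannot be told apart.

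Markers of other cell types stayed low. Fibroblast markers summed to 3.95 to 5.5 CPM without and 5.83 to 8.43 CPM with GDF11, with COL1A2, COL3A1 and LUM at 0 in all 8 wells, and leukocyte markers to 0.839 to 1.23 and 1.18 to 2.62 CPM. Endothelial markers summed to 0.498 to 0.928 CPM and 2.12 to 3.53 CPM, and both that were tested rose. PECAM1, an adhesion molecule of endothelium and platelets, went from 0.46, 0.455, 0.313 and 0.869 CPM to 2.74, 1.44, 1.44 and 1.33 CPM (log2 change 1.72 with SE 0.37, adjusted p = 0.00633 by edgeR). KDR, a receptor of vascular endothelial growth factor, was at 0 to 0.244 CPM without and 0.635 to 1.02 CPM with GDF11, and its call was lost on leaving out any of 7 of the 8 wells (edgeR adjusted p up to 0.103). Whether these reads come from the breast cells was not tested.

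The response was also set against the whole series. Of the genes called higher, 549 (64.5%) had all 4 treated wells above all 12 untreated wells, against 5.05% of all genes tested. Of those called lower, 934 (70.6%) had them below, against 6.57%. The genes were called on these same treated wells against 4 of the 12 untreated wells. Of the calls in each direction, 90.5% had no overlap between those groups of 4. A larger share than over all genes therefore follows from how the genes were chosen, and is no separate test of the response. Against WT, T288P+GDF11 differed in 4846 genes (28.9%), and T288P without GDF11 in 7 (0.0417%). These comparisons share wells, and allele and ligand both differ between T288P+GDF11 and WT.

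The 7 genes called between T288P and WT are given beside WT, without and with the ligand. They were chosen on the T288P wells used here, which are also the baseline of the change with GDF11. Their movement towards or away from WT may be shifted by that choice, so it is described only. PADI1, which converts arginine to citrulline in proteins, stood at -1.25 (SE 0.22) against WT without GDF11 and -2.22 (SE 0.22) with it, in log2 units. PPL (periplakin) stood at -0.65 (SE 0.11) and -1.38 (SE 0.11), and the myosin MYH14 at -0.78 (SE 0.13) and -1.75 (SE 0.13). These 3 thus fell further with GDF11, by 0.97, 0.73 and 0.97 (edgeR adjusted p = 0.00856, 0.000562 and 0.000163). PADI2 stood at -1.27 and -1.37, IL1B at 0.76 and 0.64, and TGFBI at 0.54 and 0.59, and the ligand changed none of them beyond the spread (edgeR adjusted p = 0.712, 0.534 and 0.723). LXN stood at -0.77 and -0.44, and its rise from 8.48, 8.95, 8 and 9.52 CPM to 11.4, 13, 9.15 and 10.5 CPM did not pass (log2 change 0.33 with SE 0.13, adjusted p = 0.0971 by edgeR). No gene of the 7 was called towards WT with GDF11, and all 7 were called against WT in the treated wells (edgeR adjusted p from 3.52e-07 for MYH14 to 0.0164 for LXN).

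**Figure D5:**
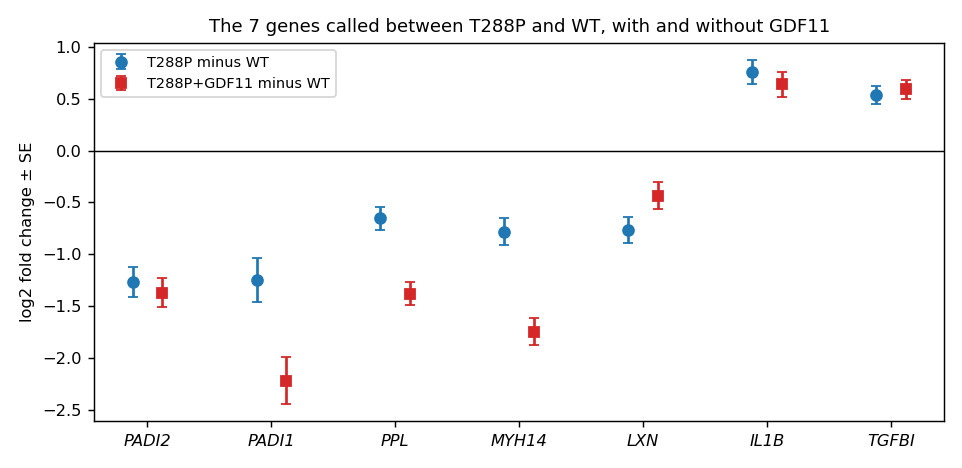
Log2 fold change against WT (± SE, from the model) of the 7 genes called between T288P and WT, in T288P without GDF11 (blue circles) and with it (red squares); both contrasts use the same 4 WT wells. PADI1, PPL and MYH14 lie further from 0 with GDF11, at -2.22, -1.38 and -1.75.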

How the data were processed

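RNA from 16 wells (WT, M452I, T288P and T288P+GDF11, 4 each) was sequenced as paired-end poly(A) libraries. The deposited values are counts per gene made by the authors, who used HISAT2 (version not given), StringTie 2.2.1 and GRCh38, per the submitters' processing notes. How counts were assigned, with which annotation and strand setting, is not given in the sources used here. In the file, counts of 1 and 2 are about equally frequent in the file, so that mates may have been counted separately.

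Genes were kept with edgeR's filterByExpr (minimum count 10), scaled by TMM, and tested with edgeR 4.0.16 (quasi-likelihood F test, robust, all 16 libraries in the model, R 4.3.3), with Benjamini-Hochberg adjustment over 16790 genes. CPM are counts scaled to the TMM-adjusted library total, as mean ± SD of 4 wells. The SE of a log2 fold change is its size divided by the square root of F. On simulated counts with 200 genes changed 2-fold, 113 (56.5%) were recovered and 9 unchanged genes were called. No 2 libraries were identical. Same-numbered wells did not deviate together, so the main model has no replicate block. Columns of values left unused numbered 0.

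The genes named are PCSK5, GDF11, all tested pathway parts, the 12 highest and 12 lowest log2 fold changes and 8 largest CPM rises and falls (at least 3 CPM, wells not overlapping), up to 5 called genes per list by smallest adjusted p, 3 long noncoding RNAs each way (at least 1 CPM), the genes called between T288P and WT, and cell markers. Not all genes that meet the rule are described, genes that may not be reported were passed over, and some list members outside it are named for their role or to complete a count, after their values were seen. The wells, lists and rules were chosen with earlier results of these data known. Alternatives were RLE scaling, DESeq2 1.42.0, limma-voom (limma 3.58.1), other count filters, a fit of the 8 T288P wells, a replicate block, the ribosomal share as covariate, and fits without single wells. Coordinates are from GENCODE on GRCh38, and promoters from RefSeq (GRCh38.p14).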

Additional observations from a re-analysis of the deposited data

Results flagged for a closer look

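In the groups of 4 wells, 24 of 340 sets of values (7.06%) had 1 well far from the other 3, where chance gives about 1 in 20, and 13 of them were T288P replicate 1. That well was the highest of the untreated T288P wells for COL9A3 (0.591 CPM against 0.359 to 0.383), DUSP5 (652 against 391 to 407), EPHB3 (24.1 against 20.6 to 21.2), HMOX1 (67.6 against 21.6 to 23.1), KCNQ1OT1 (10.8 against 7.43 to 7.91), KRT8 (708 against 389 to 406), PPP1R15A (197 against 108 to 120), SKI (27.9 against 24 to 24.2), SNHG12 (23.5 against 21.2 to 21.4) and SPRR2A (56.8 against 33.2 to 36.7). It was the lowest for CDH19 (11.2 CPM against 18.9 to 19.4), CXCL1 (31.5 against 48 to 51) and ITGA6 (690 against 916 to 963). TJP3 was low in T288P replicate 2 (2.19 CPM against 3.68 to 3.79).

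Among the treated wells, replicate 1 was high for PECAM1 (2.74 CPM against 1.33 to 1.44) and in its mitochondrial share (3.77% against 3.3% to 3.32%). Replicate 2 was high for KLK5 (3.48 CPM against 2.82 to 2.91) and low for TXNRD1 (127 CPM against 131) and VCL (155 against 196 to 203). Replicate 3 was low for GDF11 (5.95 CPM against 7.33 to 7.55) and LDLRAD4 (0 against 0.109 to 0.124). Replicate 4 was high for HK2 (157 CPM against 127 to 130) and low for ID3 (16.5 against 23.4 to 23.6) and SMAD7 (4.4 against 4.97 to 5.08). What set these wells apart was not tested.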

How the results depend on the processing

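The count of called genes (2174; 851 higher and 1323 lower) was 1391 without a filter on low counts (754 lower), 4946 with the ribosomal share as covariate (2074 higher, 2872 lower) and 410 at 2-fold or more (259 higher, 151 lower). DESeq2 called 1370 higher, and the fit of only the 8 T288P wells 1324 higher. Leaving out 1 well gave 1028 to 1912 genes, 395 to 826 higher and 633 to 1150 lower. The cause was not tested, apart from the stricter fold. The replicate block gave 1836 genes (747 higher, 1089 lower); the numbers do not pair the wells, since the deviations of same-numbered wells correlated at -0.08 to 0.01. An alternative added after seeing the data, the 8-well fit without T288P replicate 1, called 1886 (963 higher, 923 lower). Of 224 called genes that met the naming rule, 154 were called in every alternative that tested them. Without T288P replicate 1, 55 were lost, and 0 of the 224 changed sign under any alternative. Among the 247 named genes, sign changes of uncalled genes were not counted. Some of these did change sign, such as PCSK5 (log2 change from -0.02 to 0.37). Of 63 lists, 9 had a median that changed sign under some alternative. Depth limits genes of a few CPM, and 4 wells of 1 line a condition say nothing of other lines.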

Other observations

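Genes of axon guidance, which also act in epithelial sorting and branching, gave 4 genes higher and 6 lower of 43 tested (against 5.07% and 7.88% of all genes), with 2 and 4 without T288P replicate 1 and a median log2 fold change of 0.03. The secreted semaphorin SEMA3D rose from 0.953, 0.801, 0.487 and 1.11 CPM to 3.59, 1.75, 2.55 and 3.04 CPM (log2 change 1.70 with SE 0.31, adjusted p = 0.00209 by edgeR). The ephrin receptor EPHB3 fell from 24.1, 21.2, 20.9 and 20.6 CPM to 9.03, 9.04, 10.2 and 9.45 CPM (log2 change -1.20 with SE 0.13, adjusted p = 1.95e-05 by edgeR), below all 12 untreated wells. In the Notch pathway, 2 genes rose and 4 fell of 21, against 5.07% and 7.88% of all genes. Leaving out any 1 of the 8 wells left 1 riser, and the fallers were 2 without T288P replicate 1 or 3 or T288P+GDF11 replicate 4. The ligand JAG1 rose from 18.9, 30, 28.9 and 27.3 CPM to 60.9, 43.3, 49.2 and 53.8 CPM, and the receptor NOTCH3 fell from 12.6, 8.82, 11.9 and 13.7 CPM to 5.65, 6.43, 5.98 and 5.92 CPM (edgeR adjusted p = 0.000549 and 0.000774). Of 28 Wnt genes 5 rose and 3 fell, against 5.07% and 7.88% of all genes. The risers were 1 without T288P replicate 3, 2 without T288P replicate 1 or T288P+GDF11 replicate 1 or 3, and 3 without T288P+GDF11 replicate 4. SFRP1, a secreted Wnt inhibitor, rose from 92.5 to 183 CPM, and WNT7B fell from 27.7 to 12.2 CPM (edgeR adjusted p = 0.00117 and 0.00239). Of 26 Hippo genes 2 rose and 6 fell, against 5.07% and 7.88% of all genes, so that the share of risers was near the background. The paralogous coactivators WWTR1 (TAZ) and YAP1 moved apart, WWTR1 from 110, 114, 120 and 104 CPM to 155, 140, 153 and 144 CPM and YAP1 from 138, 126, 130 and 123 CPM to 110, 90.6, 105 and 106 CPM (edgeR adjusted p = 0.00317 and 0.00992).

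Among long noncoding RNAs, 49 rose and 50 fell of 1897 tested (5.22%), against 15.7% of protein-coding genes. LINC03070 rose from 1.64, 1.52, 1.81 and 1.17 CPM to 6.86, 6, 7.79 and 6.88 CPM (log2 change 2.16 with SE 0.29, adjusted p = 0.000175 by edgeR). The cadherin CDH19 rose from 11.2, 19, 18.9 and 19.4 CPM to 80.3, 55.1, 71.7 and 68.3 CPM (log2 change 2.00 with SE 0.33, adjusted p = 0.00194 by edgeR), above all 12 untreated wells.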
